A study of Mus musculus with 54 samples.

Results

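The interstitial collagens and the lysyl oxidases Lox and Loxl1 were followed in RNA-seq libraries of single follicle sides. They are 10 of the 25149 genes in the deposited count and TPM (transcripts scaled to a fixed sum, a level that accounts for transcript length) tables, taken by symbol: Col1a1, Col1a2, Col3a1, Col5a1, Col5a2, Col6a1, Col6a2, Col6a3, Lox and Loxl1. All 10 had counts in each group. The follicles, isolated from CD-1 mice at 14 to 16 days of age, were cultured in alginate for 8 days, and each then spent 12 h in medium with or without hCG, the LH-like hormone that sets off ovulation, with serum, EGF and FSH in both media. Each library came from 1 microdissected side. Without hCG the sides were called putative unruptured (n = 15) and putative ruptured (n = 14) from follicle shape. Post-hCG they were unruptured (n = 12) and ruptured (n = 13). No source says which libraries share a follicle, animal or culture. The p-values therefore measure only the spread between these libraries, which may be partly technical. It may not be the spread between animals or cultures. No source labels a batch.

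Interstitial collagens form the fibres of connective tissue outside basement membranes. Chains are hydroxylated and folded into triple helices in the cell, secreted, trimmed and laid into fibrils, and lysyl oxidases then oxidize lysines so that neighbouring molecules become cross-linked. In the ovarian follicle these collagens are known mainly from the theca and stroma around the granulosa layer, and collagen breakdown at the apex is a classic feature of ovulation.

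The median library held 2157135 counts (range 1497138 to 2834794), and the putative ruptured libraries were the shallowest group (median 1744948, highest 2029041). The sample labels name cumulus-oocyte complexes, while the methods state that these were discarded. Summed TPM of 8 oocyte genes had a median of at most 0.2 in each group and reached 177 in 1 library, putative unruptured replicate 1. Summed TPM of 8 granulosa genes had medians of 4057 (putative unruptured), 13070.5 (putative ruptured), 1551 (unruptured) and 1284 (ruptured). Most of each sum was Inha and Gja1. Inha had medians of 2594, 9027, 1333 and 1051 TPM in that order, and Gja1 1429, 3603, 154 and 134. Not all listed genes were lower post-hCG, as Nr5a2 had medians of 11.4, 23.2, 52.7 and 58.4 TPM.

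Without hCG, some libraries stood apart across most of the 10 genes at once. Putative unruptured replicate 7 was the highest of its group for 9 genes and replicate 14 the lowest for 8. Replicates 5 and 6 also lay above that group's median for all 10 genes. Putative ruptured replicates 1, 5 and 12 lay above their group's median for all 10 genes, and replicate 8 was the lowest for 8. Markers of theca and stroma moved with some of these libraries and not with others. The summed TPM of 12 such markers was 28.8 in putative unruptured replicate 14, the lowest of its group, and 411 in replicate 7, the second highest. In replicates 5 and 6, with the fourth and second highest collagen sums of the 15 libraries, it was 179 and 219, ranks 11 and 9 of 15. In putative ruptured replicates 11, 1, 5 and 12 it was 275, 173, 127 and 112, the highest 4 of the group, and these 4 libraries were also the highest for Col3a1. Post-hCG the order was less uniform. Unruptured replicate 10 and ruptured replicate 5 lay above their group's median for all 10 genes. Ruptured replicate 3, though, was the highest for 5 genes and ranked 7 for Col3a1. Unruptured replicate 8 was the lowest for 5 genes and the second highest for Lox (24.2 TPM). The heat map shows the 10 genes with the libraries of each group ordered by Col3a1.

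**Figure D1:**
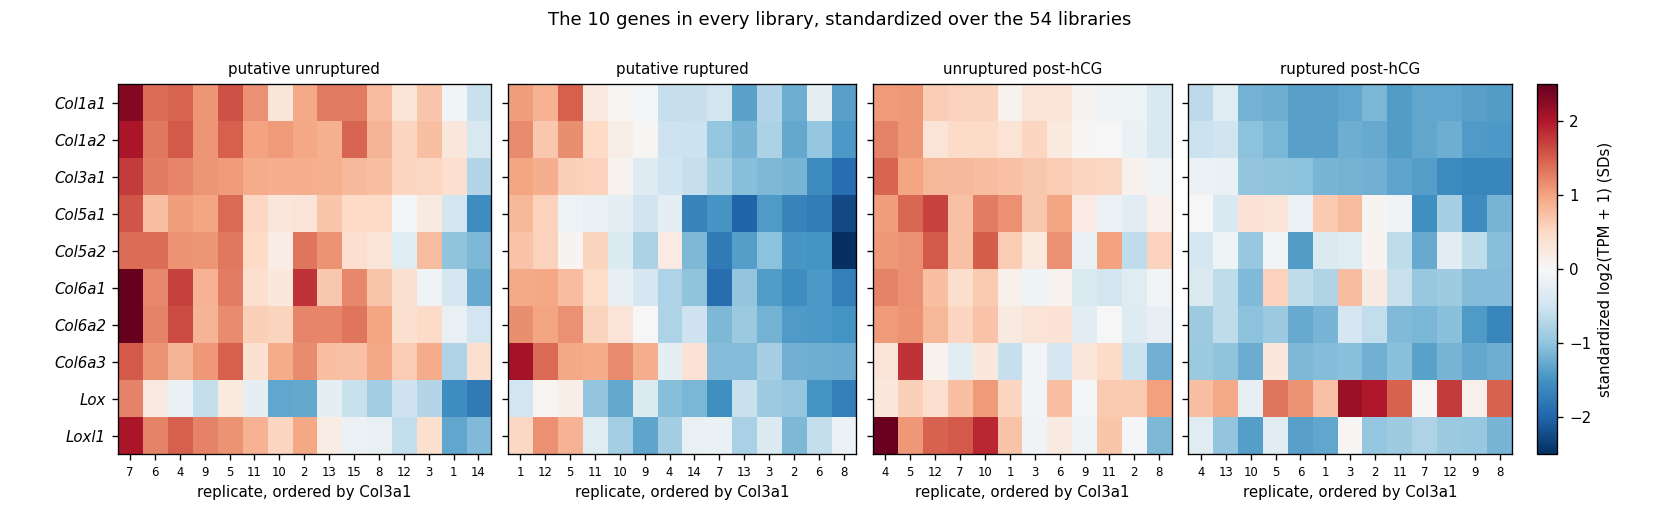
Standardized log2(TPM + 1) of the 10 genes (rows) in every library (columns, ordered by Col3a1 within each group); red is above and blue below the gene's mean over the 54 libraries, in SDs. Within the groups collagen rows tend to run from red to blue together, less so in the ruptured post-hCG group. The Lox row is red in most ruptured post-hCG libraries where the Col1a1, Col1a2 and Col3a1 rows are blue.

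The positions below are those of GENCODE vM21 on GRCm38. Col3a1 (chr1:45311538-45349706, plus strand) and Col5a2 (chr1:45374321-45503282, minus strand) are neighbours 24614 bases apart. Col6a2 (chr10:76595762-76623630) and Col6a1 (chr10:76708792-76726168), both on the minus strand, lie 85161 bases apart. Col1a1 is at chr11:94936224-94953042, Col1a2 at chr6:4504814-4541544, Col5a1 at chr2:27886425-28039514, Col6a3 at chr1:90765923-90843971 and Loxl1 at chr9:58287738-58313186. Lox is overlapped on the opposite strand by AC161119.1, which had 0 counts in all 4 groups.

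RefSeq promoter sequences (GRCm38.p6) matched 6 of the 10 genes. The 250 bases before the start are shown for 1 gene of each collagen class. These are Col3a1 for the major fibrillar collagens, Col5a1 for type V and Col6a2 for type VI. The median log2FC between the sides varied by class, but no test compared the classes. Within type VI the values post-hCG ranged widely, with -0.47 for Col6a1 and -2.21 for Col6a2. The windows hold no annotated exon. Capitals mark matches on either strand to 4 searched words, namely TATAAA of the TATA box, CCAAT of the CCAAT box, GGGCGG of the GC box and CAGAC of the Smad binding element; no marked match overlaps another.
Col3a1, chr1:45311288-45311537, plus strand: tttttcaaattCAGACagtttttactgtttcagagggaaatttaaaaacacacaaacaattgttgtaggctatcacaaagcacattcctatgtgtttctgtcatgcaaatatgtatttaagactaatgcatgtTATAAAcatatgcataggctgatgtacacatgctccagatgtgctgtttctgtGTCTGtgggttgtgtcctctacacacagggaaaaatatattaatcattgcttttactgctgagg
Col5a1, chr2:27886175-27886424, plus strand: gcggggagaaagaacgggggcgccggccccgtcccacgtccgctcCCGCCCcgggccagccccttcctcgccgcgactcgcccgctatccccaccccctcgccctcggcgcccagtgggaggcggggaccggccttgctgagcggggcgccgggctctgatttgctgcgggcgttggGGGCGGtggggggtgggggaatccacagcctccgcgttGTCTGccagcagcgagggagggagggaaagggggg
Col6a2, chr10:76623631-76623880, minus strand: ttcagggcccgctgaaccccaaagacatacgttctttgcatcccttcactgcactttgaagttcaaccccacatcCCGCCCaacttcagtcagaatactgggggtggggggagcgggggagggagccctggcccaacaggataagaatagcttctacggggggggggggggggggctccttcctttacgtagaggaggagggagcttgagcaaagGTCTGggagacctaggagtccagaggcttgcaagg
The Col3a1 window has 35.2% G and C, 1 TATAAA that begins 117 bases before the start, and 2 CAGAC words. The Col5a1 window has 76.4% G and C with 2 GGGCGG words and 1 CAGAC, and the Col6a2 window shown 59.2% with 1 of each. Another Col6a2 entry, not shown because its window overlaps an exon, has 64.4% G and C with 3 GGGCGG words and 0 CAGAC. Among 32851 RefSeq promoters of the same length, 12.4% held TATAAA, 33.8% CCAAT, 32.7% GGGCGG and 42.2% CAGAC. A match is a description of the letters and not a bound site.

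Col3a1 was the most abundant of the 10 genes in 3 of the 4 groups, and Lox in the ruptured group. Summed over the 8 collagen chains, the putative unruptured, putative ruptured, unruptured and ruptured groups had median levels of 476, 35.6, 297 and 20.0 TPM, with library ranges of 27.8 to 2620, 3.82 to 553, 74.5 to 1307 and 9.01 to 61.3. The median share of Col3a1 in that sum was 77.4%, 47.8%, 81.5% and 18.8% in the same order.

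**Figure D2:**
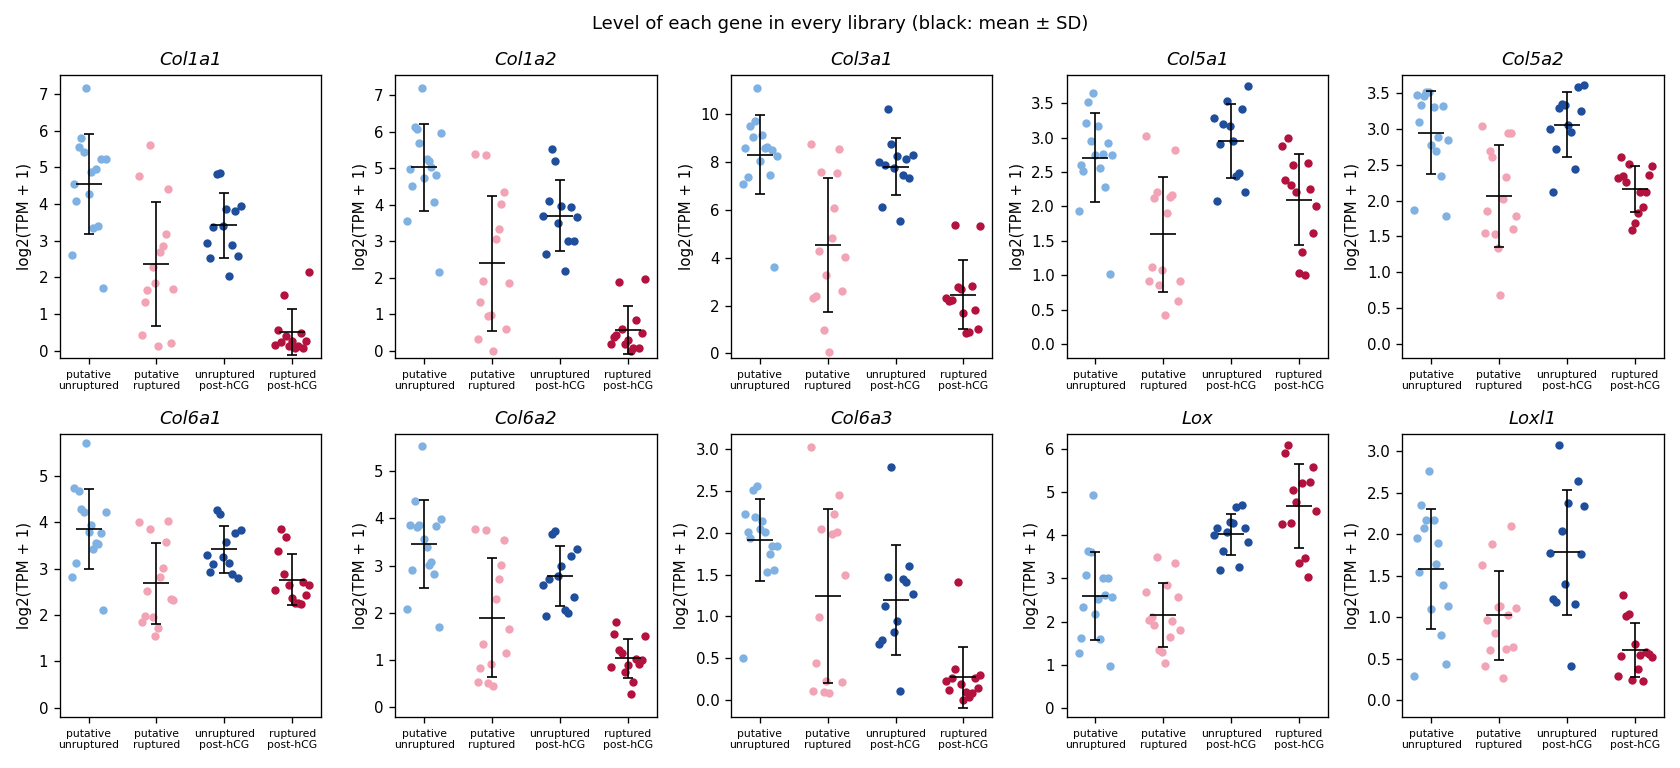
log2(TPM + 1) of each gene by group; each point is 1 library, and black bars are the mean ± SD. Col1a1, Col1a2 and Col3a1 are lowest on the ruptured side post-hCG, where Lox is highest.

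The first question was how the sides differed. Without hCG, 8 of the 10 genes were lower on the putative ruptured than on the putative unruptured side, and Lox and Loxl1 did not pass an FDR of 0.05 (edgeR quasi-likelihood F-test, Benjamini-Hochberg over all genes tested). Among the 9063 genes tested, 17.8% passed, 8.96% lower and 8.84% higher. Post-hCG, 7 of the 9 genes that passed the filter on low counts were lower on the ruptured side, Lox was higher, and Col6a1 did not pass. There 21.4% of 8585 genes passed, 11.3% lower and 10% higher. The median log2FC between the sides was -2.01 and -4.18 for the 3 major fibrillar chains without hCG and post-hCG, -1.06 and -0.76 for the 2 type V chains, and -1.29 without hCG for the 3 type VI chains, beside -0.00576 and 0.0112 over all genes tested. Because each library is a piece of tissue, fewer cells of a type and less RNA per cell cannot be told apart.

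**Figure D3:**
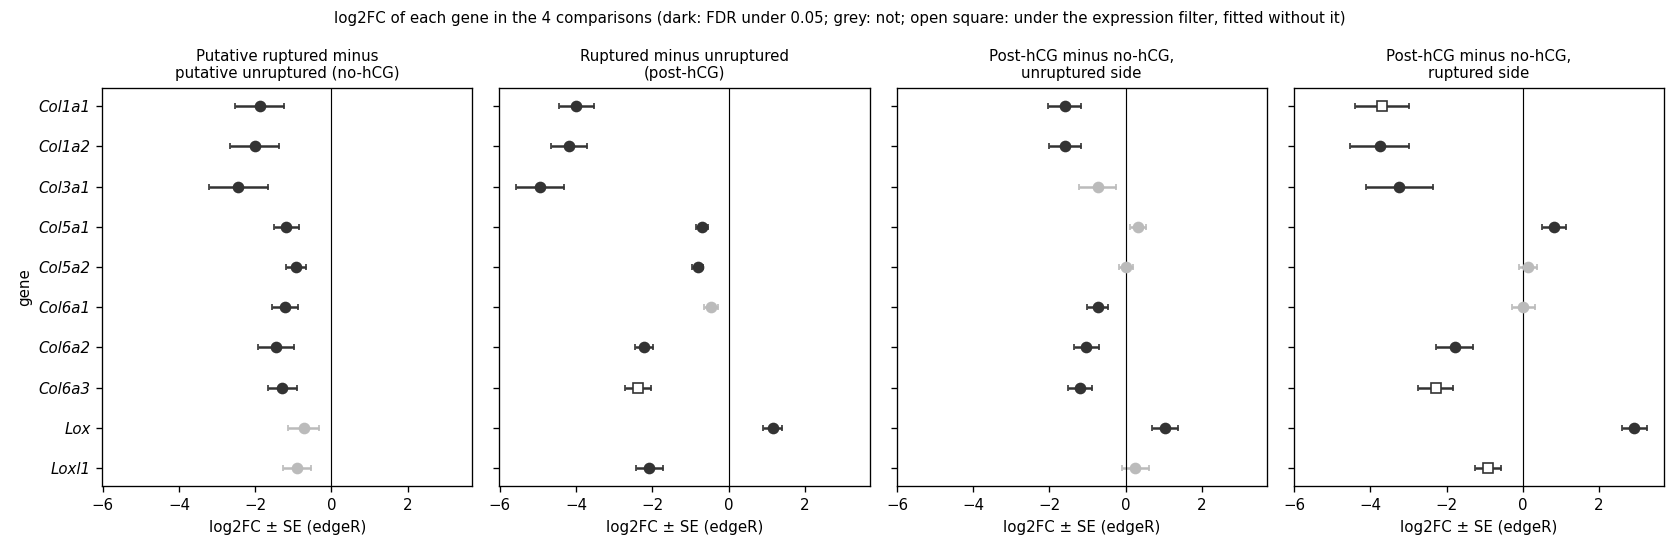
log2FC ± SE of each gene in the 4 comparisons, with dark points past an FDR of 0.05, grey points not past it, and open squares for genes under the filter on low counts, fitted without it. Post-hCG the ruptured side ranges from -4.94 for Col3a1 to 1.16 for Lox.

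The major fibrillar collagens showed the widest differences. Col3a1, the single chain of type III collagen of reticular fibres, had a lowest, median and highest level of 11.2, 381 and 2210 TPM on the putative unruptured side. The putative ruptured libraries had 0.05, 17.0 and 437 TPM. The groups overlapped, with medians 22.3-fold apart. Post-hCG it had 45.7, 247 and 1187 TPM on the unruptured side against 0.82, 3.67 and 41.0 TPM on the ruptured side. These groups did not overlap, and their medians were 67.3-fold apart. The log2FC of Col3a1 was -2.44 (SE 0.77, FDR = 0.0239) without hCG and -4.94 (SE 0.63, FDR = 8.65e-07) post-hCG. As mean ± SD of log2(TPM + 1), its levels were 8.32 ± 1.65, 4.52 ± 2.81, 7.82 ± 1.19 and 2.46 ± 1.45 in the putative unruptured, putative ruptured, unruptured and ruptured groups.

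Col1a1 and Col1a2 encode the chains that assemble together into type I collagen, the main fibre protein of skin, tendon and bone. Col1a1 had 2.25, 28.5 and 142 TPM (lowest, median, highest) on the putative unruptured side and 0.1, 3.25 and 48.0 TPM on the putative ruptured side. Post-hCG it had 3.07, 9.47 and 27.5 TPM on the unruptured side and 0.05, 0.2 and 3.46 TPM on the ruptured side, where 10 of 13 libraries held under 10 counts. The post-hCG groups of Col1a1 overlapped only by the 1 ruptured library at 3.46 TPM, replicate 13. Its log2FC between the sides was -1.89 (SE 0.65, FDR = 0.0415) without hCG and -4.00 (SE 0.46, FDR = 2.22e-07) post-hCG.

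Col1a2 had 3.48, 32.0 and 146 TPM on the putative unruptured side and 0, 2.69 and 41.2 TPM on the putative ruptured side. Post-hCG it had 3.55, 11.8 and 44.8 TPM on the unruptured side against 0, 0.31 and 2.88 TPM on the ruptured side, without overlap. Its log2FC was -2.01 (SE 0.64, FDR = 0.0261) without hCG and -4.18 (SE 0.48, FDR = 1.75e-07) post-hCG. Both chains kept a similar ratio where both could be counted. In libraries with at least 10 counts of each, the median Col1a2 to Col1a1 TPM ratio was 1.35 (15 libraries), 1.24 (10), 1.14 (12) and 1.15 (2) in the putative unruptured, putative ruptured, unruptured and ruptured groups.

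The calls of all 3 major fibrillar collagens without hCG were lost when 1 library was left out. In putative unruptured replicate 7, Col3a1 had 30.6% of its counts over the group, with 2210 TPM against 858 in the next library. Without it, 4 of the 10 genes passed in place of 8, and Col3a1 (-1.99, FDR = 0.0621), Col1a2 (-1.69, FDR = 0.0617), Col1a1 (-1.45, FDR = 0.111) and Col6a2 (-1.11, FDR = 0.0853) did not. Without putative unruptured replicate 6, Col1a1 lost its call too (FDR = 0.0555). Col6a2 also lost its call with replicate number as a block (FDR = 0.0530). Over 16 alternatives the FDR of Col3a1 ran from 0.000837 to 0.0621, that of Col1a2 from 0.000707 to 0.0617, that of Col1a1 from 0.00387 to 0.111 and that of Col6a2 from 0.00358 to 0.0853. On the ruptured side post-hCG, replicates 4 and 13 had 41.0 and 39.0 TPM of Col3a1 against 6.01 in the next library, and their theca and stroma sums of 14.5 and 18.7 TPM were the highest of that group. Leaving out replicate 4 gave a Col3a1 log2FC of -5.50 between the post-hCG sides, and leaving out replicate 13 gave -5.45.

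Type V collagen, which joins type I in fibrils and limits their width, differed less between the sides. Col5a1 had 1.02, 5.74 and 11.6 TPM on the putative unruptured side and 0.34, 1.97 and 7.12 TPM on the putative ruptured side. Post-hCG it had 3.23, 7.35 and 12.4 TPM on the unruptured and 1.01, 3.75 and 6.98 TPM on the ruptured side. The groups overlapped in both media. The log2FC of Col5a1 was -1.18 (SE 0.34, FDR = 0.0123) without hCG and -0.70 (SE 0.15, FDR = 0.00103) post-hCG, where a fit on all 4 groups gave an FDR of 0.0744 (range over 15 alternatives 0.000179 to 0.0744).

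Col5a2, its partner chain, had 2.44, 7.57 and 10.5 TPM on the putative unruptured side and 0.6, 2.83 and 7.24 TPM on the putative ruptured side. Post-hCG it had 3.36, 7.9 and 11.2 TPM on the unruptured and 2.02, 3.79 and 5.09 TPM on the ruptured side. Its log2FC was -0.94 (SE 0.26, FDR = 0.0108) without hCG and -0.81 (SE 0.14, FDR = 9.24e-05) post-hCG. The neighbouring gene Col3a1 had the larger difference in both media. The median Col5a2 to Col5a1 ratio lay between 0.950 and 1.63 in the 4 groups.

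Type VI collagen forms beaded microfibrils near cell surfaces from chains encoded by Col6a1, Col6a2 and Col6a3. Col6a2 had 2.27, 10.8 and 45.1 TPM on the putative unruptured side and 0.37, 1.85 and 12.6 TPM on the putative ruptured side. Post-hCG it had 2.79, 5.71 and 12.3 TPM on the unruptured side and 0.21, 1 and 2.48 TPM on the ruptured side, without overlap. Non-overlapping groups were found for Col1a2, Col3a1 and Col6a2 post-hCG and for none of the 10 genes without hCG, against 1.18% and 0.0331% of all genes tested. The log2FC of Col6a2 was -1.46 (SE 0.48, FDR = 0.0297) without hCG and -2.21 (SE 0.24, FDR = 7.38e-08) post-hCG.

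Col6a1 had 3.29, 12.8 and 51.3 TPM on the putative unruptured side and 1.92, 4.41 and 15.3 TPM on the putative ruptured side. Post-hCG it had 5.91, 8.73 and 18.3 TPM on the unruptured and 3.71, 5.25 and 13.5 TPM on the ruptured side. Its log2FC was -1.22 (SE 0.35, FDR = 0.0132) without hCG and -0.47 (SE 0.18, FDR = 0.0663) post-hCG, a value that passed in 5 of 15 alternatives (FDR 0.0142 to 0.322). The Col6a2 to Col6a1 ratio had medians of 0.728, 0.643 and 0.647 in the putative unruptured, putative ruptured and unruptured groups and 0.204 on the ruptured side. In the 10 ruptured libraries with at least 10 counts of both genes it ran from 0.104 to 0.351, below all 12 unruptured libraries (0.405 to 0.735).

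Col6a3 had 0.42, 3.02 and 4.88 TPM on the putative unruptured side and 0.06, 1.41 and 7.17 TPM on the putative ruptured side. Its log2FC there was -1.29 (SE 0.38, FDR = 0.0168), a value that passed in 13 of 16 alternatives. Limma on log2(TPM + 1) gave the highest FDR, 0.126 (range 0.00357 to 0.126). Post-hCG it had 0.08, 1.29 and 5.9 TPM on the unruptured side and 0, 0.14 and 1.66 TPM on the ruptured side, where 12 of 13 libraries held under 10 counts. It fell under the filter in that comparison; fitted with no filter, it was lower on the ruptured side by log2FC -2.37 (SE 0.34, FDR = 1.98e-06), where 10.8% of 20349 genes passed, 6.34% lower.

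Lox, the enzyme that gives the family its name and oxidizes lysines of collagen and elastin, went the other way from the collagens post-hCG. It had 0.98, 4.9 and 29.4 TPM on the putative unruptured side and 1.08, 3.07 and 10.4 TPM on the putative ruptured side. Post-hCG it had 8.22, 16.3 and 25.0 TPM on the unruptured side and 7.17, 26.4 and 67.4 TPM on the ruptured side. The ruptured libraries ranged both below and above the unruptured ones. The log2FC was -0.73 (SE 0.40, FDR = 0.224) without hCG and 1.16 (SE 0.24, FDR = 0.000542) post-hCG. Without putative unruptured replicate 7, at 29.4 TPM against 11.4 in the next library, the value without hCG was -0.30 (FDR = 0.621; range over 16 alternatives 0.0909 to 0.621). The post-hCG value passed in 13 of 15 alternatives (FDR range 0.000143 to 0.0883). With limma on log2(TPM + 1) it was 0.65 and did not pass (FDR = 0.0814).

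Loxl1, a lysyl oxidase known from elastic fibre assembly, was lower on the ruptured side. It had 0.22, 2.12 and 5.79 TPM on the putative unruptured side and 0.2, 0.995 and 3.28 TPM on the putative ruptured side. Post-hCG it had 0.33, 2.41 and 7.4 TPM on the unruptured and 0.17, 0.46 and 1.41 TPM on the ruptured side, where 10 of 13 libraries held under 10 counts. Its log2FC was -0.90 (SE 0.38, FDR = 0.0981) without hCG and -2.07 (SE 0.35, FDR = 4.22e-05) post-hCG. The difference without hCG passed when putative unruptured replicate 1 (FDR = 0.0469) or putative ruptured replicate 5 (FDR = 0.0420) or 12 (FDR = 0.0411) was left out (range over 16 alternatives 0.0411 to 0.198). The median Lox to Loxl1 TPM ratio was 3.06 (13 libraries), 2.70 (8), 6.21 (11) and 30.2 (3) in the putative unruptured, putative ruptured, unruptured and ruptured groups.

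The second question was how the media differed on each side. These comparisons use the same libraries as those of the sides. On the unruptured side, 5 of the 10 genes were lower post-hCG and Lox was higher, in a comparison where 53.1% of 9320 genes passed (27.7% lower and 25.4% higher). On the ruptured side, 3 of the 7 genes that passed the filter were lower and 2 were higher, where 60.1% of 8531 genes passed (30.4% lower and 29.7% higher). The media groups overlapped in TPM for all 10 genes on both sides, against 5.27% and 7.77% of genes tested that did not overlap.

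Type I collagen was lower post-hCG on both sides. Col1a1 fell on the unruptured side (log2FC -1.60, SE 0.44, FDR = 0.00255), as did Col1a2 (-1.59, SE 0.41, FDR = 0.00164). On the ruptured side Col1a2 had a log2FC of -3.75 (SE 0.78, FDR = 0.000109), and Col1a1, fitted without a filter, one of -3.69 (SE 0.71, FDR = 5.12e-05) where 33.7% of the genes passed. Col3a1 had a log2FC of -0.73 on the unruptured side (SE 0.48, FDR = 0.20), where it did not pass, and -3.24 on the ruptured side (SE 0.87, FDR = 0.00184). Leaving out unruptured replicate 4, at 1187 TPM the highest of its group, gave a Col3a1 log2FC of -1.22 on that side (FDR = 0.0242), and leaving out putative unruptured replicate 7 gave -0.29 (FDR = 0.582; range over 14 alternatives 0.0242 to 0.582). Its call on the ruptured side was made in 13 of 15 alternatives (FDR range 0.000261 to 0.0571). Limma on log2(TPM + 0.1) was among those that lost it (FDR = 0.0531).

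Type V collagen did not pass on the unruptured side, with a log2FC of 0.32 (SE 0.21, FDR = 0.186) for Col5a1 and 0.00 (SE 0.19, FDR = 0.992) for Col5a2. On the ruptured side Col5a1 was higher post-hCG (0.81, SE 0.31, FDR = 0.0270). This call was made in 11 of 15 alternatives (FDR range 0.00443 to 0.184). DESeq2 was among those that lost it (FDR = 0.0602). Col5a2 had 0.14 there (SE 0.24, FDR = 0.644).

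All 3 type VI chains were lower post-hCG on the unruptured side. The log2FC was -1.20 for Col6a3 (SE 0.31, FDR = 0.00155), -1.04 for Col6a2 (SE 0.33, FDR = 0.00819) and -0.73 for Col6a1 (SE 0.28, FDR = 0.0259). Col6a1 passed in 11 of 14 alternatives (FDR range 0.00458 to 0.196), and not without putative unruptured replicate 7 (-0.46, FDR = 0.0820). Col6a2 passed on that side in 12 of 14 (range 0.00172 to 0.0668), and not with limma on log2(TPM + 1) (FDR = 0.0610). Col6a2 also fell on the ruptured side (-1.78, SE 0.49, FDR = 0.00209), and lost the call with limma on log2(TPM + 0.1) (FDR = 0.0514; range over 15 alternatives 0.000362 to 0.0514). Col6a1 had 0.02 there (SE 0.30, FDR = 0.961), and Col6a3, fitted without a filter, had -2.29 (SE 0.46, FDR = 9.87e-05).

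Lox was higher post-hCG on both sides, with a log2FC of 1.04 (SE 0.34, FDR = 0.0105) for the unruptured and 2.93 (SE 0.33, FDR = 3.40e-09) for the ruptured side. It passed in the same direction under all 14 and 15 alternatives tried. Medians were 3.33-fold and 8.61-fold apart. Loxl1 had 0.25 on the unruptured side (SE 0.36, FDR = 0.572) and, without a filter, -0.91 on the ruptured side (SE 0.35, FDR = 0.0407), where a fit on all 4 groups gave an FDR of 0.0702 (range over 3 alternatives 0.0285 to 0.0702).

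The third question was whether the difference between the sides changed with the medium. Lox was the only one of the 10 genes that passed the interaction test, with a log2FC of 1.88 (SE 0.49, FDR = 0.00981), in a comparison where 8.91% of 10013 genes passed, 4.25% with a higher and 4.65% with a lower value. With limma on log2(TPM + 1) it was 1.09 (FDR = 0.115; range over 12 alternatives 0.00744 to 0.142). The values were -2.49 for Col3a1 (SE 0.99, FDR = 0.102), -2.17 for Col1a2 (SE 0.87, FDR = 0.108), -2.11 for Col1a1 (SE 0.88, FDR = 0.128) and -1.17 for Loxl1 (SE 0.55, FDR = 0.182). None of these 4 passed, so a difference between their side effects in the media was not shown. Col3a1 passed without putative unruptured replicate 7 (-2.94, FDR = 0.0476; range over 12 alternatives 0.0476 to 0.386). Among the type V and VI chains the interaction ran from -1.09 (SE 0.61, FDR = 0.284) for Col6a3 to 0.75 (SE 0.42, FDR = 0.292) for Col6a1.

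**Figure D4:**
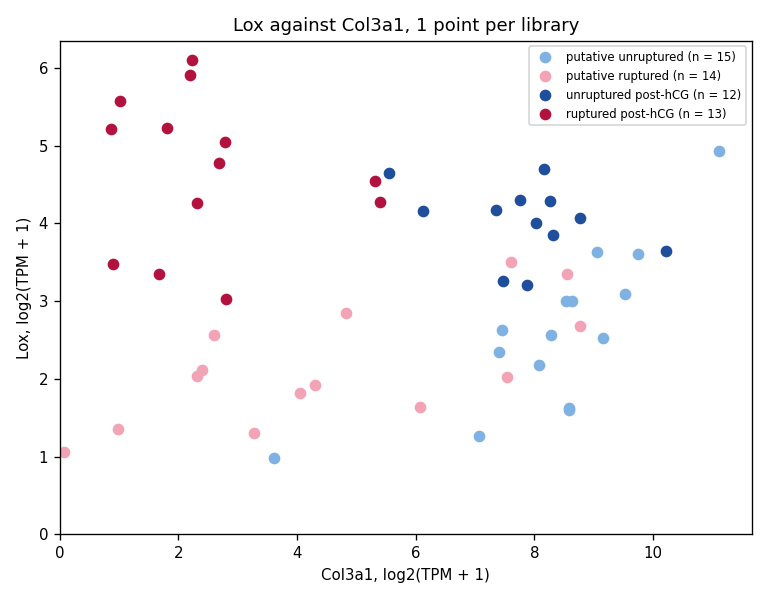
Lox against Col3a1 as log2(TPM + 1), with 1 point per library. Ruptured libraries lie at the upper left with Lox at 7.17 to 67.4 TPM and Col3a1 at 0.82 to 41.0 TPM, and putative unruptured libraries mostly at the lower right.

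Ordered by mean log2(TPM + 1), Col1a1, Col1a2, Col3a1 and Col6a2 fell from the putative unruptured to the unruptured, the putative ruptured and the ruptured side. Of those steps, the ones beyond 1 pooled SD were from putative ruptured to ruptured for Col1a1, from putative unruptured to unruptured and from putative ruptured to ruptured for Col1a2, and from unruptured to putative ruptured for Col3a1. No neighbouring groups of Col6a2 differed by more than 1 pooled SD. The step from unruptured to ruptured exceeded 1 pooled SD for Col6a1 and Col6a3, and that from putative unruptured to ruptured for Col5a2, while no neighbouring groups of Col5a1 or Loxl1 did. Both type V chains were highest on the unruptured side and lowest on the putative ruptured side. For Lox the order was ruptured, unruptured, putative unruptured and putative ruptured, and only the step between the media exceeded 1 pooled SD.

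By median, the summed theca and stroma markers ranked the 4 groups in the same order as the summed collagens, and other marker lists did not all do so. Summed theca and stroma markers had medians of 220 TPM (range 28.8 to 654) on the putative unruptured, 24.0 (6.07 to 275) on the putative ruptured, 77.8 (20.8 to 117) on the unruptured and 7.15 (2.72 to 18.7) on the ruptured side. Cyp17a1, the androgen-making enzyme of theca cells, was at 0 in all 13 ruptured libraries, and Gli1 in all 12 unruptured ones. Both zeros lie near the floor. Cyp17a1 had 6 counts in total over the unruptured group, and Gli1 had 12, 6 and 1 over the putative unruptured, putative ruptured and ruptured groups. Between the sides 5 of 7 tested markers were lower without hCG and 2 of 3 post-hCG, beside 8.96% and 11.3% of all genes tested. Among them were Pdgfra, a mesenchymal receptor (log2FC -1.65 and -3.93), and Dcn, the collagen-binding proteoglycan decorin (-2.12 and -4.08). With hCG, 5 of 7 were lower on the unruptured side and 1 of 2 on the ruptured side, beside 27.7% and 30.4% of all genes. Their part in the collagen differences was not tested.

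Summed immune markers had medians of 31.1 TPM (range 0.11 to 157), 0.62 (0 to 34.7), 13.1 (1.03 to 98.5) and 0.57 (0.08 to 3.6) in the putative unruptured, putative ruptured, unruptured and ruptured groups. For the putative unruptured side the sum was mostly Lyz2, a myeloid lysozyme with a median of 29.7 TPM there, and the other 5 of the 6 markers had medians under 1 TPM in each group. Smooth muscle markers had 34.7 (5.61 to 66.4), 5.43 (2.25 to 46.2), 4.54 (2.86 to 24.4) and 2.38 (0.31 to 4.74). Acta2, which other contractile cells also express, had a median of 29.1 TPM on the putative unruptured side, while the smooth muscle genes Myh11 and Cnn1 had medians of 0 in each group. Granulosa markers ran from 1549 to 7629 TPM on the putative unruptured and from 5841 to 19244 on the putative ruptured side. Of these, 6 of 7 tested were higher on the latter, beside 8.84% of all genes. Post-hCG they ran from 981 to 2193 TPM on the unruptured and from 861 to 1604 on the ruptured side. There 1 of 4 tested was higher on the ruptured side, beside 10% of all genes. Surface epithelium markers had a median of at most 0.635 TPM in each group and reached 32.6 in putative unruptured replicate 7. Endothelial markers had medians of 8.48, 3.835, 10.53 and 5.21 TPM in the putative unruptured, putative ruptured, unruptured and ruptured groups. Cumulus markers had 4.18, 7.615, 20.18 and 18.51 TPM in that order. Most of that sum was Tnfaip6, with medians of 3.64, 6.055, 15.94 and 14.14 TPM. Has2 of the same list had 0.38, 1.485, 0.145 and 0.06 TPM. The part of these markers in the results was not tested.

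The other genes of collagen production were taken from lists of 73 genes. Without hCG, 14 of 37 tested were lower and 5 higher on the putative ruptured side, beside 8.96% and 8.84% of all genes tested. Post-hCG, 12 of 34 were lower and 7 higher on the ruptured side, beside 11.3% and 10%. With the media, 15 of 39 were higher and 7 lower on the unruptured side, and 17 of 34 higher and 9 lower on the ruptured side, where 53.1% and 60.1% of all genes passed. These splits depended on the scaling. With library totals alone they were 2 higher and 15 lower between the post-hCG sides, 10 and 12 for the media on the unruptured side, and 11 and 13 on the ruptured side. The values given below for these genes are log2FC that passed the same FDR. The same shares of all genes stand beside the counts of the single lists below.

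Of 13 fibril-associated and other interstitial collagens, few were expressed enough to test. Without hCG all 3 tested were lower on the putative ruptured side, namely Col12a1 (log2FC -1.25), Col8a1 (-1.15) and Col16a1 (-1.04). Post-hCG both tested were lower on the ruptured side (Col8a1 -1.05, Col12a1 -0.63). Col12a1, a fibril-surface collagen, was higher post-hCG on both sides (1.26 unruptured, 1.89 ruptured) while Col16a1 was lower (-1.11 and -3.18). Among 6 other fibrillar chains, 1 of 2 tested was higher on the putative ruptured side without hCG (Col24a1, 0.90, FDR = 0.0132), and the 1 tested post-hCG was higher on the ruptured side (Col27a1, 0.71, FDR = 0.0256). Neither call was made with limma, nor that of Col27a1 with library totals alone. With the media, Col27a1 was higher post-hCG (1.75 and 2.60) and Col11a1 lower (-2.64 and -3.24).

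Both other lysyl oxidases that were tested, Loxl2 and Loxl3, were higher post-hCG on both sides. Loxl2, which also acts on basement membrane collagen, had medians of 50.2, 23.1, 386 and 303 TPM in the putative unruptured, putative ruptured, unruptured and ruptured groups, and its log2FC with hCG was 2.79 on the unruptured and 3.63 on the ruptured side. Loxl3 had medians of 0.86, 1.13, 3.75 and 6.8 TPM and a log2FC of 1.62 and 3.19. Between the post-hCG sides Loxl3 was higher on the ruptured side (1.71), and its interaction was 1.57 (FDR = 0.00370). Loxl4 had a median of at most 0.45 TPM in each group and was not tested.

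Of 21 genes of collagen hydroxylation, folding and secretion, 18 were tested between the sides, with a median log2FC of -0.02 without hCG and -0.08 post-hCG. Without hCG 3 were higher and 4 lower on the putative ruptured side, with Plod2, a lysyl hydroxylase, at 1.10 and the collagen-binding matricellular gene Sparc at -0.84. Post-hCG 3 were higher and 5 lower, the largest being P4ha2 (-1.42), a prolyl hydroxylase subunit, and Plod1 (-1.33), a lysyl hydroxylase. Scaled by library totals alone, these became 0 higher and 8 lower. With the media 9 of 18 were higher and 1 lower on the unruptured side (P4ha2 1.58) and 9 higher and 2 lower on the ruptured side (P3h2, a prolyl hydroxylase, 1.27). With library totals alone these splits were 5 and 2, and 4 and 6.

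Of 10 procollagen processing genes, Adamts2, which removes the amino-terminal propeptide, was lower on the ruptured side post-hCG (-1.66) and with hCG on both sides (-1.42 unruptured, -2.96 ruptured). With hCG, Pcolce was higher on both sides (0.61 unruptured, 1.03 ruptured). On the ruptured side Adamts3 was higher with hCG (1.49) and Bmp1 lower (-0.32). In the sides post-hCG 1 of 4 tested was higher (Adamts3, 0.81) and 3 lower, and without hCG 2 of 3 tested were lower (Pcolce -1.03, Bmp1 -0.47). Of 10 receptors and uptake genes, 3 of 6 tested were lower without hCG, led by the endocytic receptor Mrc2 (-1.56) and the collagen receptor kinase Ddr2 (-0.996), and Itga2, an integrin chain that binds collagen, was higher (1.46). Post-hCG 1 of 4 tested was lower, Ddr2 at -1.98. Of 10 collagen-cleaving enzymes, Mmp2, a gelatinase, was lower on the ruptured side in both media (-2.33 and -4.85). Mmp2 was higher with hCG on the unruptured side (1.61). Mmp14, a membrane protease that activates Mmp2, was lower on the putative ruptured side (-0.77) and with hCG on both sides (-1.54 unruptured, -0.86 ruptured). Mmp15 went the other way, higher on the ruptured side post-hCG (0.83) and with hCG on that side (2.11).

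Genes whose levels were most like those of the 10 genes were ranked by Pearson correlation with the mean standardized log2(TPM + 1) of each class over the 54 libraries, among the 9878 genes whose mean level reached 1 TPM. The libraries share group, depth and cell content, so these values only describe likeness. For the major fibrillar collagens the closest genes were Bgn (0.960), a small proteoglycan, Cdh11 (0.952), a mesenchymal cadherin, and Serpinf1 (0.950). With the group means removed, r was 0.892, 0.884 and 0.873. For type V they were Cpxm1 (0.864), Arhgdia (0.853) and Cald1 (0.847), and for type VI Cygb (0.921), Cd248 (0.918) and Sparcl1 (0.915). For Lox they were Gas1 (0.853), a membrane protein that binds hedgehog ligands, Porcn (0.852), the acyltransferase of Wnt ligands, and Loxl2 (0.847). Removing group means left 0.597, 0.582 and 0.618 for these. Gas1 had medians of 3.31, 2.08, 10.6 and 51.0 TPM in the putative unruptured, putative ruptured, unruptured and ruptured groups. For Loxl1 they were Snai1 (0.818), Mmp2 (0.804) and Pdgfra (0.797).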

How the data were processed

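Side pieces were profiled by Smart-Seq2 with paired-end reads aligned to GRCm38 by HISAT2. The authors deposited estimated counts per gene, of which 72.2% of the non-zero values are whole, and TPM values, which they scaled by transcript length and library. Listed TPM values sum to 585982 to 678417 per library. Batch correction with ComBat-seq is stated in the methods, not whether it preceded the deposited tables. The counting program, annotation and batches are not given in the sources used here.

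Counts were rounded, kept by filterByExpr where they reached a minimum count of 10 and a total of 15, and scaled by TMM. The quasi-likelihood F-test of edgeR 4.0.16 in R 4.3.3 was fitted on the groups compared, and on all 4 for the interaction. Genes under the filter were refitted without it. The test was checked on simulated counts. DESeq2 1.42.0 and limma 3.58.1 on log2(TPM + 1) or log2(TPM + 0.1) were alternatives, with other scalings, filters, a replicate block and left-out libraries, some of them chosen after seeing the data. Levels, ratios and likeness used Python 3.11.15 with numpy 2.4.6 and pandas 2.3.3. Library totals ran from 1497138 to 2834794 counts. Within groups, no pair of libraries agreed within sampling noise (lowest chi-square per degree of freedom 4.02). All 10 genes are described; listed genes are named by largest log2FC past the FDR. The genes and lists were chosen with earlier results of these data known. Sequences are from RefSeq.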

Additional observations from a re-analysis of the deposited data

Results flagged for a closer look

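The side difference of Lox depended on the medium. Its log2FC between the sides was -0.73 without hCG and 1.16 post-hCG, and the test of the difference gave 1.88 (SE 0.49, edgeR FDR = 0.00981). Without putative unruptured replicate 7 the value without hCG was -0.30 and the difference 1.46 (FDR = 0.0258). Medians were 4.9 and 3.07 TPM on the putative unruptured and putative ruptured sides, and 16.3 and 26.4 TPM on the unruptured and ruptured sides. The value passed in 10 of 12 alternatives and not with limma on log2(TPM + 1) or log2(TPM + 0.1) (FDR = 0.115 and 0.142).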

How the results depend on the processing

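Of 664 values of the 10 genes under alternatives, 616 kept their direction and their side of the threshold, 27 lost and 11 gained the call, and 10 changed sign. Leaving out single libraries moved the number of genes past the threshold from 8 to between 4 and 9 for the sides without hCG, from 8 to between 8 and 9 post-hCG, from 6 to between 5 and 7 for the media on the unruptured side, from 5 to between 4 and 6 on the ruptured side, where Col1a2 fell under the filter without putative ruptured replicate 1, 5 or 12, and from 1 to between 1 and 2 for the interaction. For the media on the ruptured side the number was 8 with no filter and 2 with limma on log2(TPM + 0.1). For the interaction it was 0 with limma at both pseudocounts, with 2 when putative unruptured replicate 7 was left out. Over all genes, the sides without hCG had 1613 calls with edgeR and 999 and 1012 with limma at the larger and smaller pseudocount.

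Sign changes were limited to values near 0. For the media on the unruptured side, Col5a2 had -0.20 with library totals only, -0.00825 with no filter, -0.0265 with the replicate block, and between -0.0649 and 0.0656 when single libraries were left out, with values below 0 without unruptured replicate 4 or putative unruptured replicate 1 or 14. On the ruptured side it had -0.21 and Col6a1 -0.28 with library totals only, and Col6a1 between -0.0700 (without ruptured replicate 3) and 0.174 when single libraries were left out. The interaction of Col5a2 with limma on log2(TPM + 1) was -0.0143. Library totals moved the median of all genes by -0.15 between the post-hCG sides, by -0.22 and -0.32 for the media on the unruptured and ruptured sides, and limma with a pseudocount of 1 by -0.22 post-hCG, by -0.14 for the media on the ruptured side and by -0.17 for the interaction. The split of higher and lower calls post-hCG was then 397 and 1830 with totals and 211 and 2070 with limma, against 862 and 971. With totals it was 1455 and 3844, and 1376 and 4242, for the media on the unruptured and ruptured sides, against 2365 and 2582, and 2532 and 2597. With limma it was 1450 and 2801 for the media on the ruptured side and 88 and 687 for the interaction, which with totals had 230 and 660, against 426 and 466. The causes were not tested.

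The labels give the groups the same replicate numbers, and whether these numbers pair the libraries is not known. Deviations from the group means correlated by over 0.1 in 2 of 14, 3 of 12, 1 of 12 and 3 of 13 same-numbered pairs. The order is that of the 4 comparisons of sides and media above. In the same order, 2, 3, 1 and 3 libraries correlated best with their own number. Such correlations over many genes cannot exclude that the numbers pair the libraries. With the replicate block, the genes past the threshold numbered 6, 9, 7, 3 and 1 in the 5 comparisons. Each of those fits used only replicate numbers that its groups share, so it also left out libraries. Between the post-hCG sides, with the block and without ruptured replicate 13, the SE of Col3a1, Col1a1 and Col1a2 was 0.25, 0.22 and 0.23. In the main fit it was 0.63, 0.46 and 0.48. Leaving out that replicate alone gave 0.43 for Col1a1. Without hCG, with the block and without putative unruptured replicate 15, the SEs were 1.15, 0.85 and 0.82, against 0.77, 0.65 and 0.64. The parts of the block and of the left-out library were not separated. The SE did not simply follow the counts. Between the sides without hCG it was 0.77 for Col3a1, the most abundant of the 10 genes there. For Loxl1, the least abundant by median TPM, it was 0.38. In the ruptured post-hCG group, whose median library total of 2192224 counts lies above that of all libraries, Col1a1, Col6a3 and Loxl1 held under 10 counts in 10, 12 and 10 of 13 libraries.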
